A study of Mus musculus with 6 samples.

Results

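The genes for voltage-gated sodium channels, voltage-gated calcium channels and HCN channels were examined in the hippocampus of mice that lost the acetyltransferase p300 in adult excitatory forebrain neurons. Members were taken by symbol from a fixed list, and all 33 were found among the 55471 genes of the count table. They were 9 sodium channel alpha subunits, 3 sodium channel beta subunits, 10 calcium channel alpha1 subunits, 4 alpha2delta subunits, 4 calcium channel beta subunits and 3 HCN channels. RNA-seq had been performed on total RNA from the hippocampus of 6 individual male C57BL/6 mice, 1 library per mouse. The p300-ifKO group (inducible forebrain knockout, 3 mice) carried floxed Ep300 alleles and the Camk2a-creERT2 transgene, a tamoxifen-activated Cre recombinase under the control of a promoter active in excitatory forebrain neurons. The control group (3 mice) consisted of littermates that lacked creERT2 by the protocol. The description of the control libraries names the driver, and the Esr1 counts that bear on this are given with the check of the labels. Both groups received tamoxifen in 5 intragastric administrations (20 mg/ml in corn oil, on alternate days), and mice were 3 to 6 months old. The allele leaves a truncated protein, and other cells of the tissue keep p300, so that these bulk libraries mix recombined and intact cells. In such samples, fewer cells of a type and less RNA per cell cannot be told apart.

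Voltage-gated sodium channels open on depolarization and carry the rising phase of the action potential. Their pore is a single large alpha subunit, and the smaller beta subunits modify its gating and anchor it in the membrane. Voltage-gated calcium channels are built on a similar alpha1 pore, which sets the current type, together with an intracellular beta subunit and an extracellular alpha2delta subunit, both of which promote surface expression. In neurons they couple electrical activity to transmitter release and to transcription. HCN channels open on hyperpolarization, are gated by cyclic nucleotides and set the resting excitability of pyramidal cell dendrites. p300 is a coactivator of CREB, a transcription factor that responds to calcium entry through such channels. The comparison asked whether transcripts of these channels depend on p300 in the adult hippocampus.

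Coding sequences of the sodium channel alpha subunits are so alike that short reads cannot always be assigned. Scn1a, Scn2a, Scn3a, Scn7a and Scn9a lie in the same region of chromosome 2 (GRCm38). This region runs from 65457118, the start of Scn3a, to 66784914, the end of Scn7a. Scn3a and Scn2a are set apart from Scn1a, Scn9a and Scn7a by the stretch from 65767447 to 66270778. Scn8a lies alone on chromosome 15. Reads were 50 bases long, and a read from within a stretch identical between genes matches more than 1 gene and falls below the mapping quality limit that the authors applied. Over all exons, 4.03% of the 50-base stretches of Scn1a, 5.76% of Scn2a, 6.49% of Scn3a and 4.16% of Scn9a also occurred in exons of another gene, against 0.037% of Scn8a. Levels of these 4 chromosome 2 genes are therefore slightly understated. Scn7a shared 0% of its stretches with another gene. Stretches shared with a gene on the opposite strand reached 15.01% for Cacnb4, 15.8% for Hcn3 and 16.3% for Cacna1s, and whether counting used strand is not given in the sources used here.

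Of the 33 genes, 29 were detected, defined as a mean normalized count (count divided by the DESeq2 size factor) of 10 or more over the 6 mice. The 4 others were Scn4a and Cacna1s, the channels of skeletal muscle, and Scn10a and Scn11a, channels of sensory neurons. Scn10a had 0 counts in all 6 mice, Scn11a had at most 1.77 and Scn4a at most 5.37 normalized counts. Cacna1s had between 2.65 and 8.41. Levels were compared between genes as RPKM, that is, counts divided by the exonic length in kilobases and scaled to a library total of 1000000.

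Among sodium channel alpha subunits, Scn8a, the main channel of mature axon initial segments and nodes, had the highest level per length. It had 24.0, 24.2 and 29.6 RPKM in controls versus 20.2, 28.3 and 21.5 RPKM in p300-ifKOs. Scn2a, abundant in unmyelinated axons of excitatory neurons, followed with 21.01, 20.6 and 25.8 RPKM in controls versus 14.7, 22.2 and 19.7 RPKM in p300-ifKOs. Scn8a was above Scn2a in all 6 mice, but the ranges of both genes overlapped. Scn1a, prominent in parvalbumin interneurons, had 8.77, 7.78 and 10.4 RPKM in controls versus 4.29, 10.3 and 8.26 RPKM in p300-ifKOs. For Scn8a, Scn2a and Scn1a, the first p300-ifKO mouse had the lowest value, and the groups overlapped. Scn3a, which is best known from the developing brain, had between 1.91 and 4.38 RPKM. Scn7a, the sodium-sensing channel of glia, had between 0.271 and 0.776 RPKM and Scn9a, best known from nociceptors, between 0.132 and 0.412 RPKM. Scn1a overlapped in range with Scn3a and Scn7a with Scn9a, whereas Scn2a was above Scn1a and Scn3a above Scn7a without overlap. Scn8a and Scn2a together thus dominated the family: Scn8a made up 41.9% ± 0.767 (SD, n = 3) of its summed RPKM in controls versus 43.9% ± 4.27 (SD, n = 3) in p300-ifKOs, and Scn2a 36.3% ± 0.131 (SD, n = 3) and 35.4% ± 1.61 (SD, n = 3).

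The beta subunits Scn2b and Scn3b were present at higher levels per length than the pores. Scn2b, which is linked to the alpha subunit by a disulfide bond, had 62.0, 61.7 and 58.8 RPKM in controls versus 54.6, 59.7 and 54.7 RPKM in p300-ifKOs. Scn3b, which associates with it noncovalently, had 56.5, 61.1 and 58.2 RPKM in controls versus 58.7, 56.7 and 54.1 RPKM in p300-ifKOs. These genes did not differ in level beyond their spread. Scn4b, the subunit implicated in resurgent current, had between 3.69 and 5.30 RPKM, on average 13.4 times less than Scn3b.

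**Figure D1:**
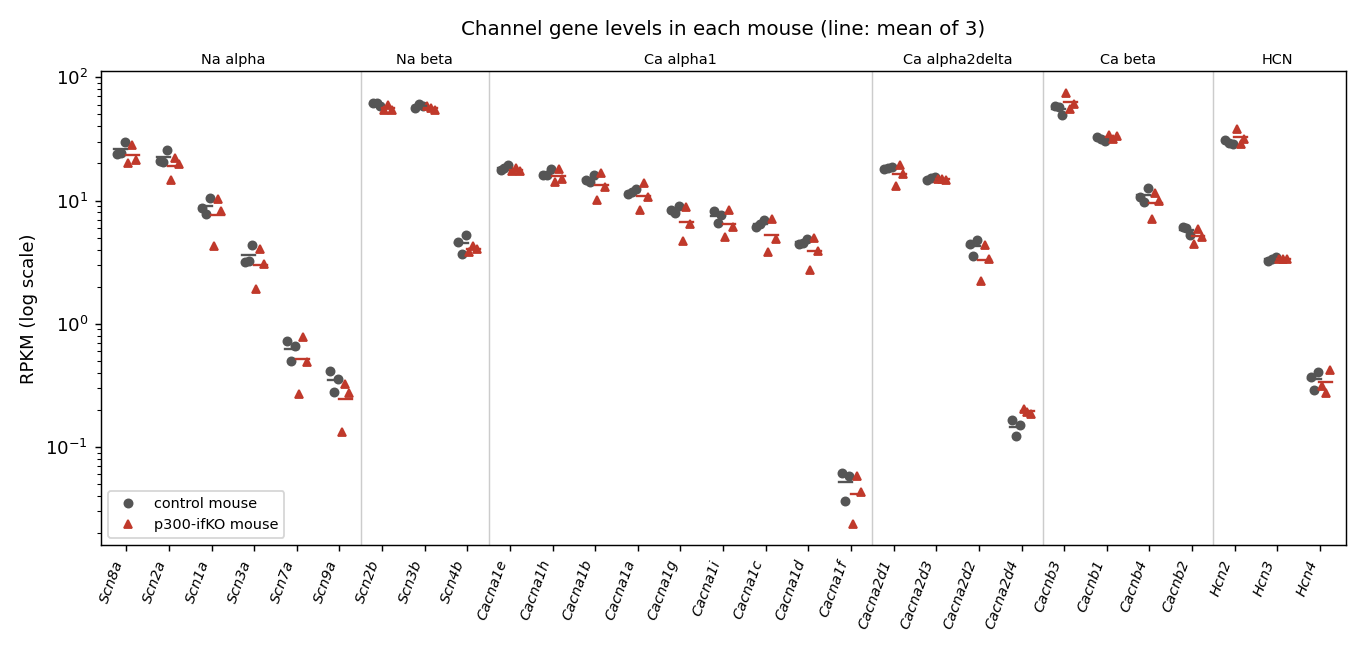
Level of the 29 detected channel genes in each mouse, in RPKM on a log scale, with control mice as grey circles, p300-ifKO mice as red triangles and the mean of 3 mice as a line; genes are ordered by level within each family. Levels within a family spanned orders of magnitude (calcium channel alpha1 subunits from 0.0469 RPKM for Cacna1f to 18.1 RPKM for Cacna1e), whereas the groups overlapped for all genes except Cacna2d4.

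In level per length, calcium channel alpha1 subunits formed a graded series rather than a family with a single main member. This order depends on the exonic length, which counts all annotated exons whether expressed or not. Before division by length, Cacna1e (25.23 kb) had a mean of 11390 normalized counts, against 3953 for Cacna1h (9.763 kb). Cacna1e, the pore of the R-type current, had 17.6, 18.3 and 19.5 RPKM in controls versus 17.3, 18.4 and 17.4 RPKM in p300-ifKOs. The T-type gene Cacna1h had 16.03, 16.04 and 18.1 RPKM in controls versus 14.2, 18.1 and 14.9 RPKM in p300-ifKOs. The presynaptic N-type gene Cacna1b ranged from 10.1 to 16.8 RPKM and the P/Q-type gene Cacna1a from 8.39 to 13.7 RPKM. Each of these genes overlapped in range with its neighbour in the order. Below them stood the other T-type genes, Cacna1g (4.73 to 8.996 RPKM) and Cacna1i (5.05 to 8.35 RPKM), and the L-type genes Cacna1c (3.81 to 7.04 RPKM) and Cacna1d (2.74 to 4.97 RPKM), whose channels signal from the membrane to CREB. The retinal L-type gene Cacna1f was at the edge of detection, with 0.0238 to 0.0614 RPKM. The order from Cacna1e down to Cacna1d had no gap, since each gene overlapped with the next, while Cacna1d was 90.2 times higher than Cacna1f.

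The auxiliary subunits were more sharply ordered. Among alpha2delta subunits, Cacna2d1, the receptor of gabapentin, had 18.2, 18.4 and 18.8 RPKM in controls versus 13.1, 19.6 and 16.3 RPKM in p300-ifKOs. Cacna2d3 had 14.6, 15.1 and 15.4 RPKM in controls versus 14.9, 15.1 and 14.7 RPKM in p300-ifKOs, the narrowest range of the family relative to its level, and overlapped with Cacna2d1. Cacna2d2, which also binds gabapentin, had between 2.23 and 4.82 RPKM, below Cacna2d3 in every mouse. Cacna2d4, known from photoreceptors, was 22.3 times lower than Cacna2d2. Among calcium channel beta subunits, the order Cacnb3, Cacnb1, Cacnb4, Cacnb2 was without overlap. Cacnb3 had 58.5, 57.3 and 49.6 RPKM in controls versus 74.9, 55.2 and 60.4 RPKM in p300-ifKOs, and Cacnb1 between 30.7 and 33.8 RPKM in all mice. Cacnb4 had between 7.05 and 12.7 RPKM and Cacnb2 between 4.45 and 6.14 RPKM.

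Hcn2 dominated the 3 HCN genes. It had 30.8, 29.1 and 28.8 RPKM in controls versus 37.9, 28.7 and 31.6 RPKM in p300-ifKOs, which was 88.9% ± 0.688 (SD, n = 3) and 89.8% ± 1.24 (SD, n = 3) of the summed RPKM of the 3 genes. Hcn3 had between 3.22 and 3.45 RPKM, a narrow range. Hcn4, the pacemaker channel of the sinoatrial node, had between 0.276 and 0.418 RPKM. Over the 6 families, 12 of the 23 neighbouring pairs of detected genes overlapped in range.

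**Figure D2:**
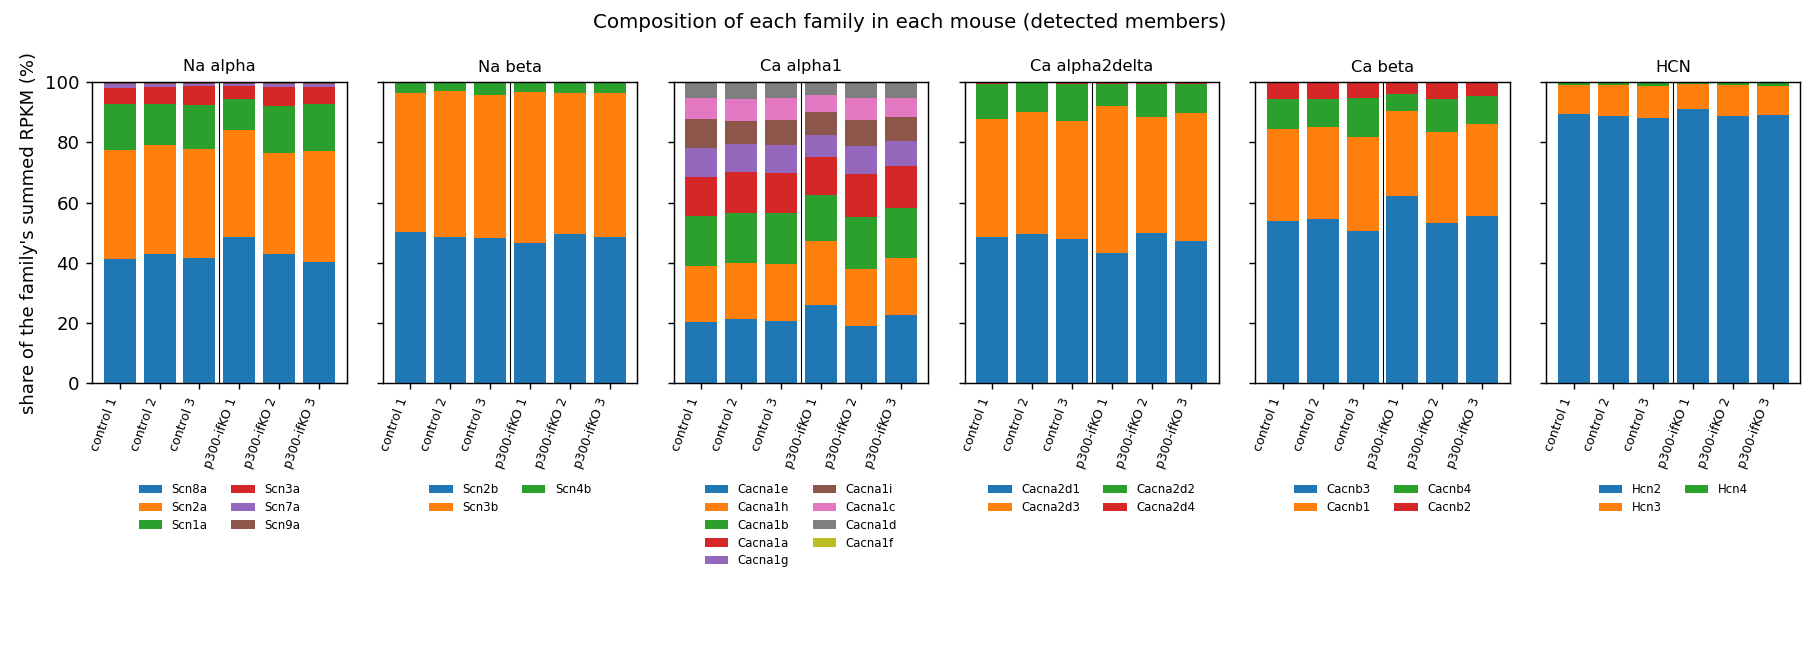
Share of each detected gene in the summed RPKM of its family, as a percent, in each of the 6 mice; colours are set within each panel and the vertical line separates control from p300-ifKO mice. The first p300-ifKO mouse stands apart, with a Scn8a share of 48.6% and a Cacnb3 share of 62.3%, while the other 5 mice lie between 40.3% and 42.9% and between 50.6% and 55.6%.

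The shares of 31 of the 33 genes in their families overlapped between the groups. This count includes the undetected genes, of which Scn10a had no counts and could not separate. The share of Cacna1g among calcium channel alpha1 subunits was 9.71%, 9.31% and 9.51% in controls versus 7.13%, 9.17% and 8.41% in p300-ifKO, so that each p300-ifKO mouse lay below each control mouse. The share of Cacna2d4 among alpha2delta subunits was 0.439%, 0.329% and 0.386% in controls versus 0.676%, 0.493% and 0.542% in p300-ifKO, above in each mouse. With 3 against 3 mice, an exact permutation test cannot give a two-sided p below 0.1, so that shares were not tested. No background over all genes was computed for shares. In normalized counts, 4.09% of detected genes lay above and 3.37% below in each p300-ifKO mouse. The separation of these shares is therefore description only.

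The labels were checked on Ep300, which had 1545, 1474 and 2334 normalized counts in controls versus 478, 1350 and 912 in p300-ifKOs. The second p300-ifKO mouse was the closest to the controls. Ep300 was lower in each p300-ifKO mouse but was not called (log2 fold change −0.97, SE 0.33; DESeq2 unadjusted p 0.0037, adjusted p 0.99). Without the second p300-ifKO mouse, DESeq2 called Ep300 (−1.36, adjusted p 0.00037). It was also called in all 6 mice when DESeq2 included 1 surrogate variable, a covariate estimated from the counts (−0.49, adjusted p 0.0021). A gene that is not called in the fit to all mice by group alone may thus still differ. Across the transcriptome, DESeq2 called 2 genes of 32773 (0.0061%) at an adjusted p under 0.05. They were Arsi and Esr1, both carried in whole or in part by the driver transgene and both higher in each p300-ifKO mouse. Esr1, whose ligand-binding part is in creERT2, had 109, 87.2 and 108 normalized counts in controls versus 4217, 2416 and 2868 in p300-ifKOs, low in all 3 controls. Arsi had 28.8, 24.2 and 38.8 in controls versus 204, 168 and 171 in p300-ifKOs. The libraries held from 23151568 to 28433823 counts, and each pair of libraries differed by more than sampling noise.

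No channel gene passed the test between p300-ifKO and control mice. In DESeq2, 0 of the 29 detected members had an adjusted p under 0.05 and 0 had an unadjusted p under 0.05. At that unadjusted level stood 1.32% of all genes tested, and 383 of the 17071 detected genes. The edgeR quasi-likelihood test likewise gave 0 members at either level. Members leaned to lower values in p300-ifKO mice without passing: 25 of 29 had a negative log2 fold change, with a median of −0.182, while the median over all 17071 detected genes was −0.0051 and 50.7% of them were negative. The 4 positive members were Cacna2d4, Cacnb3, Hcn2 and Cacnb1. The 95% interval lay within a change of 1 on the log2 scale in either direction for 25 of 29 members, and within 0.5 for 10.

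**Figure D3:**
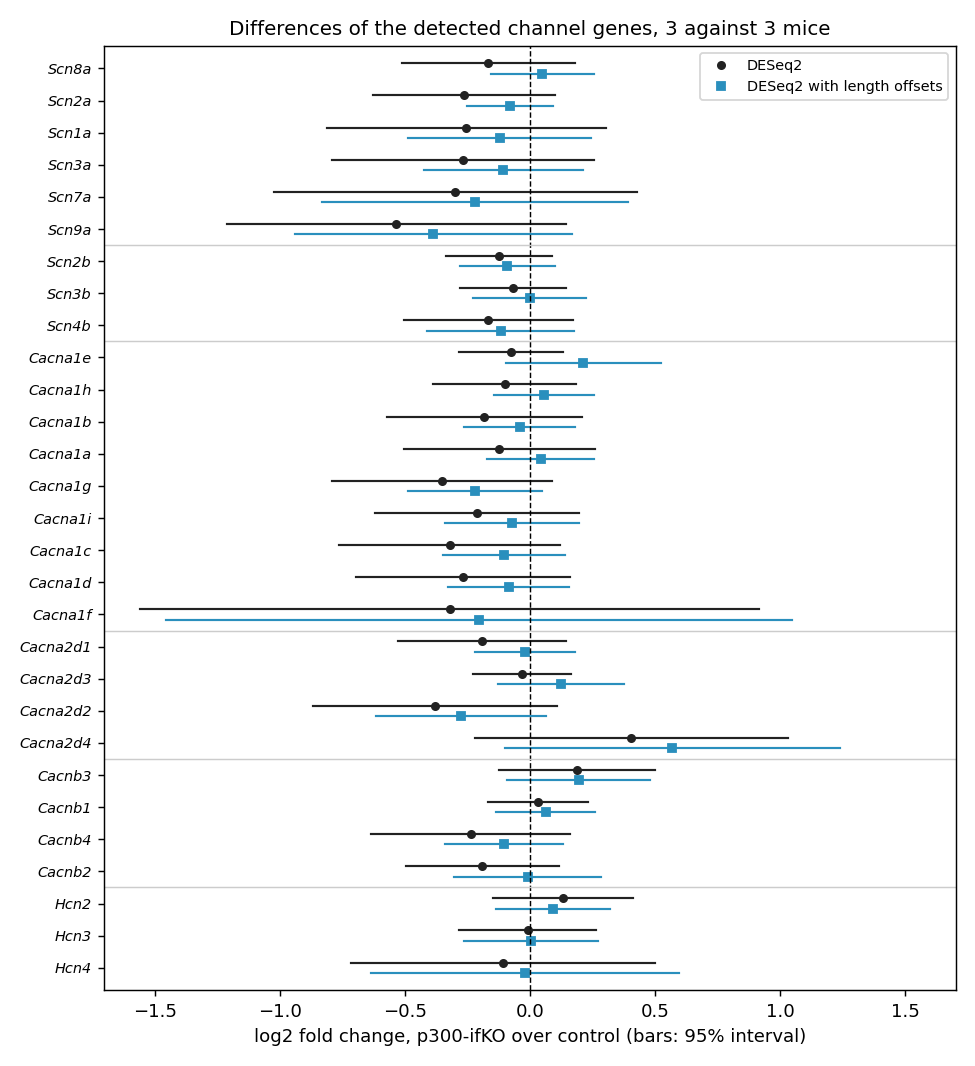
Log2 fold change of p300-ifKO over control for the 29 detected genes, with 95% intervals, in DESeq2 (black circles) and in DESeq2 with length offsets (blue squares). All intervals include 0 in both fits, and 25 values are negative in the first fit and 19 in the second.

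The 6 members with the smallest unadjusted p belonged to 3 families. Cacna1g, a T-type pore, had 2129, 2058 and 2271 normalized counts in controls versus 1191, 2250 and 1615 in p300-ifKOs. This amounted to a log2 fold change of −0.35 (SE 0.22; DESeq2 unadjusted p 0.116, adjusted p 0.991). The second p300-ifKO mouse fell among the controls and the other 2 below them. Scn9a had 131, 91.4 and 114 normalized counts in controls versus 41.9, 104 and 85.8 in p300-ifKOs (log2 fold change −0.53, SE 0.35; DESeq2 unadjusted p 0.122, adjusted p 0.991). Cacna2d2 had 884, 718 and 953 normalized counts in controls versus 440, 865 and 657 in p300-ifKOs (log2 fold change −0.38, SE 0.25; DESeq2 unadjusted p 0.126, adjusted p 0.991). In both, the groups overlapped through the second p300-ifKO mouse.

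Cacna1c, the main L-type pore of the brain, had 3323, 3557 and 3795 normalized counts in controls versus 2069, 3865 and 2609 in p300-ifKOs (log2 fold change −0.32, SE 0.22; DESeq2 unadjusted p 0.153, adjusted p 0.991). The highest value of all 6 mice was that of the second p300-ifKO mouse and the lowest that of the first. Scn2a had 6740, 6740 and 8266 normalized counts in controls versus 4715, 7190 and 6209 in p300-ifKOs (log2 fold change −0.26, SE 0.19; DESeq2 unadjusted p 0.157, adjusted p 0.991). Cacna2d4 differed in the other direction, with 38.8, 29.4 and 35.7 normalized counts in controls versus 48.3, 46.0 and 43.4 in p300-ifKOs (log2 fold change 0.40, SE 0.32; DESeq2 unadjusted p 0.206, adjusted p 0.991). It was the single detected member whose groups did not overlap. Each p300-ifKO mouse was above each control mouse for 4.09% of all detected genes and below for 3.37%, a count of 1 and 0 of the 29 members.

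The families differed in where their values lay. All 6 detected sodium channel alpha subunits were negative (median −0.27), as were all 9 alpha1 subunits (median −0.21) and the 3 sodium channel beta subunits (median −0.12). Of the alpha2delta subunits 3 of 4 were negative (median −0.11), of the calcium channel beta subunits 2 of 4 (median −0.079) and of the HCN genes 2 of 3 (median −0.0095). None of these genes passed, and the families were not tested against each other. Cacnb3, the most abundant calcium channel beta subunit, had a log2 fold change of 0.19 (SE 0.16) and Hcn2 of 0.13 (SE 0.14). The smallest differences were those of Hcn3 (−0.0095, 95% interval −0.28 to 0.26) and Cacna2d3 (−0.031, 95% interval −0.23 to 0.17).

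The pore subunits are encoded by long transcripts, and length was related to the difference across the transcriptome. The median exonic length of the detected members was 9.76 kb, against 4.10 kb for all detected genes. Over all detected genes, the median log2 fold change went from 0.20 for genes of at most 2 kb to 0.088 for 2 to 4 kb, −0.046 for 4 to 8 kb, −0.14 for 8 to 12 kb and −0.20 above 12 kb. The channel genes followed the same order, from 0.13 for Hcn2, the single member of 2 to 4 kb, to medians of −0.11 for the 9 members of 4 to 8 kb, −0.21 for the 9 of 8 to 12 kb and −0.23 for the 10 above 12 kb. Above 12 kb, all 10 members were negative, and so were 92.4% of all detected genes. Spearman's rho between log2 fold change and length was −0.44 over the 17071 detected genes and −0.50 over the 29 members. These correlations are across genes of the same libraries, which are not independent replicates.

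**Figure D4:**
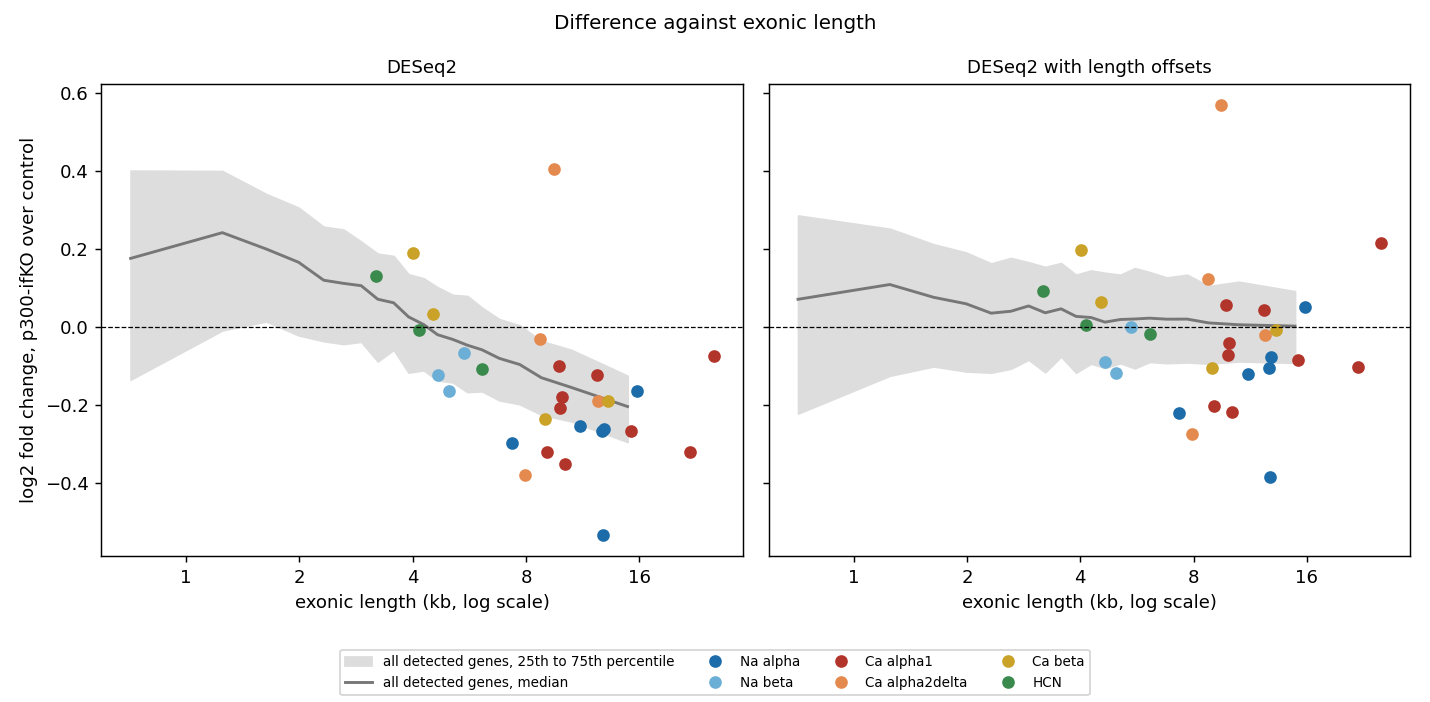
Log2 fold change of p300-ifKO over control against exonic length (kb, log scale) for the 29 detected channel genes, coloured by family, with the median (line) and the 25th to 75th percentile (grey) of all 17071 detected genes in 20 bins of length, in DESeq2 (left) and with length offsets (right). The line declines with length on the left and is close to 0 for long genes on the right, where the channel genes scatter around a median of −0.042.

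A fit with a smooth term of length removed from each library was therefore set beside the first. The term was fitted without regard to group, so that it also removes any group difference that follows length. With these length offsets, 19 of 29 members were negative and 10 positive, and their median was −0.042, against 0.03 for all detected genes. The number called was 0, as was the number at an unadjusted p under 0.05 (1.45% of all genes tested, and 435 of the 17071 detected genes). The medians were −0.11 for sodium channel alpha subunits and −0.072 for alpha1 subunits, and the sign turned for 6 members: Scn8a (0.050), Cacna1a (0.043), Cacna1e (0.21), Cacna1h (0.055), Cacna2d3 (0.12) and Hcn3 (0.0034). Cacna1g (−0.22, SE 0.14), Cacna2d2 (−0.27, SE 0.17) and Scn9a (−0.39, SE 0.28) kept their sign, as did Cacna2d4 (0.57, SE 0.34), which had the smallest unadjusted p of the members in this fit, 0.0962 in DESeq2. After the offsets, the groups of Cacna2d4 and Scn2a did not overlap, with Cacna2d4 above and Scn2a below in each p300-ifKO mouse; 4.81% of all detected genes were separated upward and 3.3% downward.

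The length relation ran in opposite directions among the p300-ifKO mice and in the same direction in each control. Each library was set against the mean of all 6, and Spearman's rho between this log2 ratio and length over all detected genes was 0.21, 0.19 and 0.43 in controls versus −0.50, 0.44 and −0.23 in p300-ifKOs. The median log2 ratio of the channel genes was 0.055, 0.0036 and 0.18 in controls versus −0.42, 0.17 and −0.12 in p300-ifKOs, in the same order. After length offsets these medians were 0.019, −0.0047 and −0.035 in controls versus −0.063, 0.039 and −0.059 in p300-ifKOs. The first p300-ifKO mouse was the lowest of the 6 for 18 of the 29 members, and for 37.8% of all detected genes. Without this mouse, the median of the channel genes was −0.059 and 22 of 29 were negative. RNA quality values are not given in the sources used here, and the source of the length relation was not tested.

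**Figure D5:**
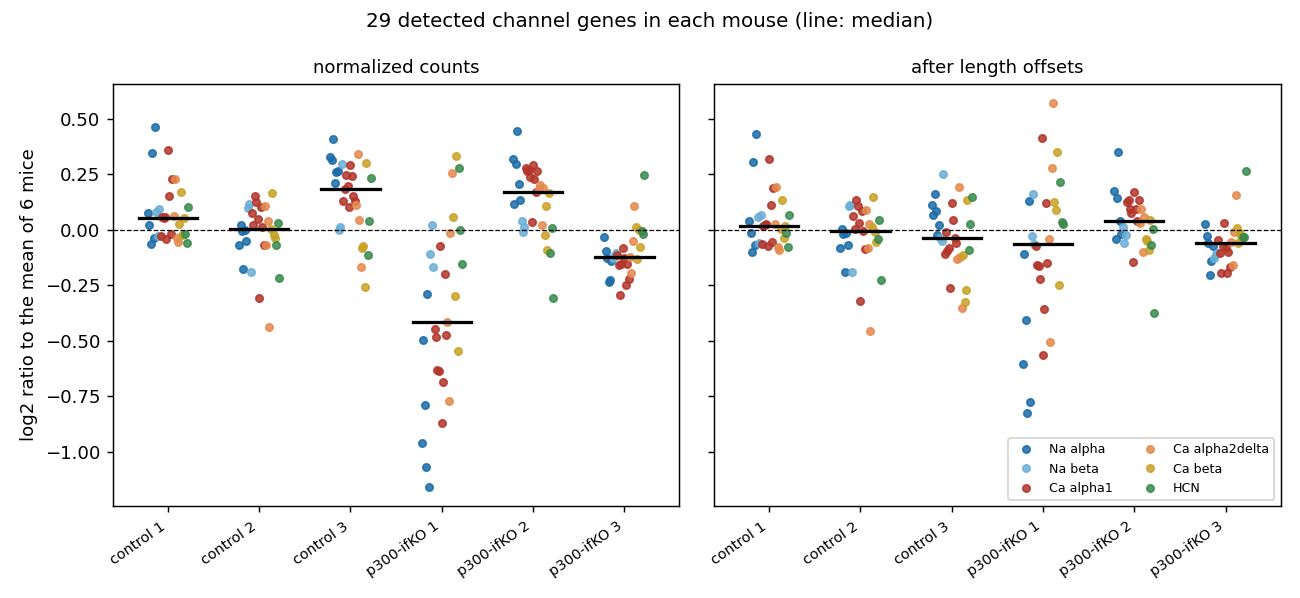
Log2 ratio of each of the 29 detected channel genes to its mean over 6 mice, by mouse, before (left) and after (right) length offsets; points are genes coloured by family and lines are medians. The median of the first p300-ifKO mouse moves from −0.42 to −0.063 and that of the second from 0.17 to 0.039.

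Calls among the channel genes depended on the second p300-ifKO mouse. When it was left out, DESeq2 called 4 members, all lower in p300-ifKO: the L-type pores Cacna1c (log2 fold change −0.60, adjusted p 0.011) and Cacna1d (−0.50, adjusted p 0.041), the T-type pore Cacna1g (−0.61, adjusted p 0.018) and the alpha2delta subunit Cacna2d2 (−0.63, adjusted p 0.038). In that fit 444 of 32019 genes (1.39%) were called lower, all of them among the 17071 detected genes. Of the detected genes above 8 kb, 10.2% were called lower. The median of the channel genes was −0.335. With length offsets in the same 5 mice, a fit chosen after seeing the data, 0 members were called by DESeq2. In it 117 genes (0.365% of all genes tested) were called lower, all among the 17071 detected genes. Of the detected genes above 8 kb, 1.39% were called lower. The same 4 genes stayed negative there: Cacna1g at −0.35 (adjusted p 0.058 in DESeq2), Cacna2d2 at −0.43 (adjusted p 0.091), Cacna1c at −0.21 (adjusted p 0.26) and Cacna1d at −0.17 (adjusted p 0.42). In that fit the median of the channel genes was −0.090 and 17 of 29 were negative.

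Genes that anchor, regulate or accompany these channels were read beside them. The list held 24 genes: the FGF homologous factors that bind sodium channels, the axon initial segment scaffold, the sodium leak channel NALCN with its subunits, the gamma subunit family, calcium channel regulators, the HCN partner Pex5l and the calmodulins. All were detected, 16 were negative and 8 positive, with a median of −0.14, and 0 passed in DESeq2 at an adjusted or an unadjusted p under 0.05. The lowest was Ank3, the scaffold that clusters sodium channels at the axon initial segment, with 8.82, 8.56 and 11.8 RPKM in controls versus 5.81, 9.93 and 7.997 RPKM in p300-ifKOs (log2 fold change −0.31, SE 0.22). Next was Nfasc, an adhesion molecule of the same site, with 20.2, 20.7 and 25.3 RPKM in controls versus 14.6, 22.5 and 18.1 RPKM in p300-ifKOs (−0.28, SE 0.19). Their groups overlapped, and with length offsets the values were −0.022 and −0.082. The highest was Cacng5, a gamma subunit family member that acts on AMPA receptors, with 2.49, 2.80 and 3.51 RPKM in controls versus 3.63, 2.92 and 4.45 RPKM in p300-ifKOs (0.30, SE 0.22). Rem2, a small GTPase that inhibits calcium channels, followed with 6.95, 7.29 and 6.21 RPKM in controls versus 10.4, 7.06 and 7.71 RPKM in p300-ifKOs (0.28, SE 0.19). With length offsets the median of the list was −0.015. Without the second p300-ifKO mouse, DESeq2 called 3 of the 24, all lower: Nfasc (−0.46, adjusted p 0.041), Ank3 (−0.52, adjusted p 0.049) and Rims1, a presynaptic scaffold of calcium channels chosen after its values were seen (−0.43, adjusted p 0.037). With length offsets in the same 5 mice, 0 were called.

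Several of these channels differ in level between cell types, so that marker lists were summed in each mouse, in normalized counts. Markers of excitatory neurons lay between 97530 and 113400 in controls versus 107200 and 120900 in p300-ifKOs, with 3 of 7 genes negative. Interneuron markers lay between 23270 and 26570 in controls versus 22240 and 24400 in p300-ifKOs, with 6 of 8 negative. Neither neuronal list separated the groups. The summed level of astrocyte markers was lower in each p300-ifKO mouse (93270 to 105000, against 106200 to 109800), with 4 of 6 genes negative, and most of this sum came from the glutamate transporter gene Slc1a2 (mean 65440). The summed level of microglial markers was higher in each p300-ifKO mouse (9046 to 11760, against 8356 to 8993), with 2 of 7 genes negative, Cx3cr1 and P2ry12. Gene by gene the groups mostly overlapped: the complement gene C1qb, for example, had 1255, 1217 and 1107 in controls versus 2273, 1150 and 1530 in p300-ifKOs. The sums carry no length offsets. In both lists the first p300-ifKO mouse was the furthest from the controls and the second the closest. Of single detected genes, 4.09% lay above and 3.37% below in each p300-ifKO mouse. No such share was computed for sums, so that their separation is description only. Marker sums of oligodendrocytes, their precursors, endothelium and mural cells, choroid plexus, blood, thalamus and striatum overlapped between the groups. No marker gene was called in DESeq2, none was at 0 in all mice, and the choroid plexus marker Kcnj13 was below detection. The part of cell composition in the channel values was not tested.

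The promoters of the channel genes were read for the site of CREB, a factor for which p300 is a coactivator. Enhancers and the sites of other factors were not read. RefSeq promoters of 300 bases (GRCm38.p6) were found for 26 of the 33 genes, 36 promoters in all. They were rich in CpG: 44.4% of them held 20 or more CpG dinucleotides, against 26.5% of all 32851 promoters, and their median GC content was 61.2%, against 52.7%. The full palindromic site TGACGTCA was found in 0 of the 36 (1.79% of all promoters), and the shorter TGACGT, on either strand, in 1 (7.51% of all promoters), that of a start of Cacnb2. The core TGACG, which both longer forms contain, was found on either strand in 6 of the 36 (16.7%, against 20.81% of all promoters), those of Cacna1b, Cacna1c, Cacna1i, Cacna2d1, Cacnb2 and Scn10a. The stretch of Cacnb2 that holds TGACGT is shown with the motif, which begins 117 bases before the start, in capitals.
Cacnb2, chr2:14823945-14824010, plus strand: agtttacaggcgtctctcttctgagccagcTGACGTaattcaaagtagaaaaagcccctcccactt

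Cacnb2 had 2026, 2019 and 1713 normalized counts in controls versus 1463, 1937 and 1644 in p300-ifKOs (log2 fold change −0.19, SE 0.16, and −0.0087 with length offsets). Its groups overlapped. Of the 50-base stretches of Cacnb2, 5.9% are shared with other genes, among them genes on the opposite strand. A match of letters does not show that a factor binds there.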

How the data were processed

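The authors deposited a table of raw counts of reads per gene with an exonic length. Per the labels and methods, single-end 50 bp reads were trimmed (Trim Galore 0.6.4), aligned with STAR 2.6.1 to GRCm38, filtered at a mapping quality above 10 and counted with Rsubread on Ensembl genes. The strand setting is not given in the sources used here. Filtering removes reads that match several genes, and counts are not corrected for RNA quality.

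Groups and replicate numbers came from sample titles. Total counts ranged from 23151568 to 28433823, with 0 columns per sample left unused. Of 55471 genes, 55230 matched GENCODE M21 by identifier. DESeq2 (version 1.42.0, R 4.3.3), the tool of the study, was run on all genes with a two-sided Wald test, median-of-ratios size factors and Benjamini-Hochberg adjustment over 32773 genes at a threshold of 0.05. Intervals are 95% intervals. RPKM were computed here from the deposited counts and lengths. Length offsets were smooth terms of log length per library (mgcv 1.9.3, basis dimension 6, genes with a mean normalized count above 10). Alternatives were edgeR (version 4.0.16, quasi-likelihood, TMM), TMM factors, other filters, a replicate block, length and GC offsets, 1 surrogate variable (sva 3.50.0) and leaving out each library. The fits to all 6 libraries were also run on simulated data. Fits that leave out a library, with or without length offsets, were not.

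All 33 members are named, with full statistics for the 6 with the smallest unadjusted p. Of the partner genes, values are given for the 2 highest and 2 lowest by log2 fold change, and for Rims1, chosen after its values were seen. The members, lists and tests were chosen with earlier results of these data known. Deviations of mice with the same replicate number correlated at 0.27, −0.28 and 0.13. With so few mice these values cannot exclude a pairing by litter or batch. The library names carry the same original numbers in both groups, and whether these pair the mice is not given in the sources used here. The main fit treated the mice as unpaired. Sequences of the sodium channel genes are not reported here.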

Additional observations from a re-analysis of the deposited data

How the results depend on the processing

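The count of channel genes called by DESeq2, 0, was also 0 under every alternative except when p300-ifKO replicate 2 was left out (0 to 4 over the fits without 1 library). The replicate block also gave 0 channel genes, with Cacna1c and Cacna1g at an unadjusted p under 0.05, and 4 genes in all: Esr1, Arsi and, chosen after their values were seen, Igkc and Igha. The fit with 1 surrogate variable called 3 genes in all: Esr1, Arsi and Ep300. Over the fits without 1 library, the number of genes called was 2 to 926 and that of partner genes 0 to 3, and the median log2 fold change of the channel genes ran from −0.335 to −0.059. With p300-ifKO replicate 2 left out and length offsets, 344 genes were called. The median of the channel genes was −0.042 with length offsets, −0.066 with length and GC offsets and −0.014 with 1 surrogate variable, and from −0.196 to −0.171 under other tests, scalings and filters. Signs turned as follows, none of them called, and the cause was not tested. With length offsets: Scn8a 0.050, Cacna1a 0.043, Cacna1e 0.21, Cacna1h 0.055, Cacna2d3 0.12 and Hcn3 0.0034. With length and GC offsets: Scn3b 0.0088, Cacna1e 0.17, Cacna2d1 0.066, Cacna2d3 0.13, Cacnb1 −0.015 and Hcn2 −0.010. With 1 surrogate variable: Scn1a 0.12, Scn3a 0.087, Scn7a 0.079, Scn8a 0.012, Cacna1a 0.091, Cacna1b 0.045, Cacna1f 0.038, Cacna1h 0.025, Cacnb1 −0.0060, Cacnb4 0.010 and Hcn2 −0.014. Hcn3 was 0.0018 with TMM factors and 0.0017 in edgeR without a filter, an alternative added after seeing the data. With length offsets and without p300-ifKO replicate 2, also added after seeing the data: Scn8a 0.034, Scn3b 0.031, Cacna1e 0.33, Cacna1h 0.047, Cacna2d3 0.20, Cacnb2 0.012, Hcn3 0.0030 and Hcn4 0.15. Over the fits without 1 library, Scn1a ran from −0.54 to 0.029, Scn7a from −0.74 to 0.0029, Cacna1a from −0.33 to 0.035, Hcn3 from −0.040 to 0.011 and Hcn4 from −0.29 to 0.012. The other 24 detected members kept their sign in those fits. Levels per length were moved beyond the spread by neither other measure of library size. With 3 mice per group, the median SE of a channel gene was 0.194, which limits what could be detected.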
